A study of Mus musculus with 36 samples.

Results

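The subject here is a set of 37 mouse genes of the NRF2 pathway, taken by symbol from a list that was drawn up with earlier results of these data known. It holds the regulators Nfe2l2 and Keap1, 9 oxidative stress enzymes, 4 genes of glutathione supply, 5 genes that supply NADPH, 2 ferritin subunits, 13 glutathione transferases and 2 exporters of glutathione conjugates. All 37 were found among the 53379 genes of both count tables, and all 37 had counts and passed the filter on low counts in each comparison.

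RNA was sequenced from 36 libraries of formalin-fixed, paraffin-embedded tissue of 28 animal and tissue combinations in 7 groups. In the Sglt2-Cre model, 6 mice of genotype Sglt2-Cre; ASPSCR1-TFE3 LSL/+ gave 11 kidney tumor libraries (6 mice), 4 non-transformed kidney libraries (mice 1, 3, 4 and 5), 4 retro-orbital tumor libraries (mice 2, 3, 5 and 6) and 3 brain tumor libraries (mice 1, 2 and 4). Control kidneys came from 3 mice that carried Sglt2-Cre without the fusion allele, with 6 libraries in all. In the Pax8-Cre model, dysmorphic kidneys came from 5 fetuses of genotype Pax8-Cre; ASPSCR1-TFE3 LSL/+, and control kidneys from 3 fetuses labelled Pax8-Cre. The design text of the series allows ASPSCR1-TFE3 LSL/+ without Cre for these controls as well, so the genotype of each is uncertain. ASPSCR1-TFE3 is a gene fusion found in translocation renal cell carcinoma, here kept silent by a stop cassette (LSL) until Cre removes it. Sglt2 drives Cre in the proximal tubule, and Pax8 drives it in the forming nephron. Ages are not given in the labels used here, and the labels do not say whether tumors of a mouse share an origin.

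NRF2, the protein made from Nfe2l2, is a transcription factor that switches on detoxifying and antioxidant genes through a DNA motif called the antioxidant response element. KEAP1 holds NRF2 in the cytoplasm and directs its degradation until oxidants or electrophiles modify KEAP1. The target genes make glutathione, regenerate it with NADPH from the pentose phosphate pathway, couple it to reactive compounds through glutathione transferases, and export the conjugates. The proximal tubule is known for high levels of several of these enzymes, in particular the alpha-class transferases.

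Library totals ranged from 80205573 to 121415057 counts. Levels are given as CPM (counts scaled to a common library size) after scaling with TMM factors, and a gene was called where edgeR's quasi-likelihood test gave a Benjamini-Hochberg adjusted p under 0.05 over all genes tested. Mice 1 and 5 were male by Y-linked transcripts, while all 3 control mice were female. The summed level of 7 proximal tubule markers was 11700 to 12500 CPM in control kidneys and 11500 to 14500 CPM in non-transformed kidneys. In kidney tumors it was 2480 CPM in mouse 1, 7950 CPM in mouse 4 and 7850 CPM in mouse 5, against 636 to 646 CPM in mice 2, 3 and 6. The 6 distal nephron and collecting duct markers were also highest in mice 4 and 5, at 3880 and 5840 CPM, with 931 CPM in mouse 1 and 20.5 to 217 CPM in mice 2, 3 and 6. The 5 fibroblast markers summed to 837 to 1910 CPM in kidney tumors, above every non-transformed kidney (median 417 CPM) and every control kidney (median 361 CPM), and their part in the results was not tested. Counts that lead a comparison were also run without the kidney tumors of mice 4 and 5. In bulk tissue, fewer cells of a type and less RNA per cell cannot be told apart.

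Per kilobase of exon, the most abundant of these transcripts in control kidneys were Ftl1, the ferritin light chain, with a mean level of 735 CPM per kb, and Gsta2, an alpha-class glutathione transferase, with 604 CPM per kb. Gstm1, a mu-class transferase, followed with 425 CPM per kb. At the other end, Slc7a11, which encodes the cystine importer xCT, had a level of 0.0253 CPM per kb in control kidneys. In kidney tumors the level per length was 1855 CPM per kb for Ftl1, 953 CPM per kb for Gstm1, 631 CPM per kb for Gsta2 and 5.77 CPM per kb for Slc7a11.

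The first question was how the genes stood in kidney tumors against kidneys of mice without the fusion. Of the 37 genes, 16 were called, 11 higher and 5 lower, which is 43.2% against 19.0% of all 23578 genes tested. The background in each direction was 12.5% called higher and 6.51% called lower. The median log2 fold change of the 37 genes was 0.564, and that of all genes tested was 0.046. Stress enzymes, NADPH-supplying enzymes and the ferritin light chain accounted for most of the rises, and glutathione transferases for 4 of the 5 falls. Without the kidney tumors of mice 4 and 5 the number called was 22, and all 16 genes were among them, while the share of all genes called rose to 34.1%. In female mice only (4 tumors and all 3 controls) it was 26, again with all 16, and Nfe2l2, Nqo1, Txnrd1 and Gclc were among the genes added, and 27.8% of all genes were called. It fell to 3 without control mouse 2, to 3 without control mouse 3 and to 6 without control mouse 1, where 4.78%, 4.96% and 8.55% of all genes were called.

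**Figure D1:**
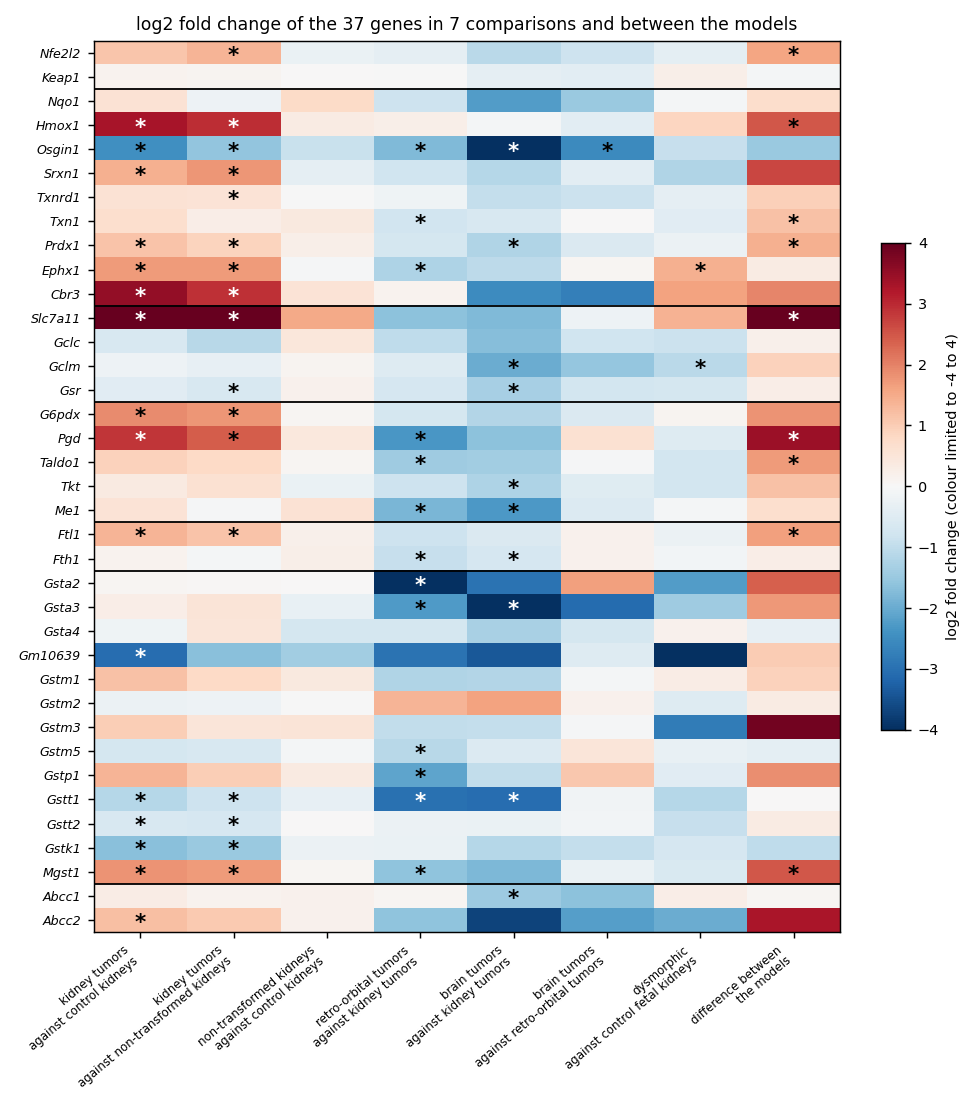
Fitted log2 fold change of each of the 37 genes (rows, with black lines between roles) in 7 comparisons and in the difference between the models (columns). Red is higher and blue is lower in the first-named group, the colour is limited to -4 to 4, and an asterisk marks genes with an edgeR adjusted p under 0.05. Asterisks in the kidney tumor columns fall on both red and blue cells, while those in the retro-orbital and brain columns fall on blue cells only.

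Neither regulator was called by edgeR in this comparison, although Nfe2l2 was close to the threshold. Nfe2l2, on chr2:75675513-75704641 (GRCm38), was at 296, 266 and 261 CPM in control mice 1 to 3. In kidney tumors of mice 1 to 6 it was at 384, 565, 811, 427, 354 and 968 CPM. Every tumor lay above every control, and mice 3 and 6 were highest. The log2 fold change was 1.12 ± 0.35 (SE), with an edgeR adjusted p of 0.0531 (n = 6 and 3 mice). Nfe2l2 was called in 9 of 17 alternative settings, among them DESeq2, limma-voom, the joint fit of all groups, halved counts, female mice only, and fits without the tumors of mice 4 and 5 or without mouse 1, 4 or 5. Keap1, on chr9:21229730-21239361, was at 14.1, 16.6 and 17.7 CPM in controls and from 13.1 to 19.8 CPM in tumors with overlapping groups (log2 fold change 0.13 ± 0.17, adjusted p = 0.597).

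Of the 9 stress enzymes, 5 rose and 1 fell. Hmox1, which encodes the heme-degrading enzyme heme oxygenase 1 and lies on chr8:75093621-75100589, was at 22.5, 45.6 and 32.0 CPM in controls. In the 6 tumors it ran from 210.2 CPM in mouse 4 to 437 and 449.9 CPM in mice 6 and 3, with a median of 300.7 CPM, so that all 6 exceeded all controls. Its log2 fold change was 3.28 ± 0.39, with an adjusted p of 0.00097. Hmox1 is also abundant in macrophages, and the summed level of 7 macrophage markers was 972 and 760 CPM in tumors of mice 1 and 2 and 225 to 437 CPM in the other tumors, against a median of 226 CPM in controls. Their part in the Hmox1 values was not tested.

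Osgin1, a growth inhibitor that responds to oxidative stress, fell. It was at 66.2, 79.3 and 59.9 CPM in controls and at 9.37, 9.23, 6.15, 21.3, 20.3 and 8.70 CPM in tumors of mice 1 to 6. All tumors lay below all controls, and mice 4 and 5 were the highest of the tumors. The log2 fold change was -2.44 ± 0.37, with an adjusted p of 0.0036.

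Cbr3, a carbonyl reductase, was at 2.79 to 3.48 CPM in controls and at 11.8, 70.1, 47.8, 16.4, 15.5 and 45.6 CPM in tumors of mice 1 to 6, with a log2 fold change of 3.50 ± 0.67 (adjusted p = 0.00927). Ephx1, the microsomal epoxide hydrolase, rose by 1.70 ± 0.46 on the log2 scale, from 44.3 to 48.2 CPM in controls to 55 to 291 CPM in tumors. Srxn1, which repairs overoxidized peroxiredoxins, rose by 1.43 ± 0.41, with 5 of 6 tumors above every control. Prdx1, a peroxiredoxin, rose by 1.15 ± 0.26, from 523 to 584 CPM in controls to 850.2 to 1585 CPM in tumors.

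The other stress enzymes did not pass the test. Nqo1, the quinone reductase widely used as a readout of NRF2, was at 23.9, 16.8 and 22.3 CPM in controls and at 14.8, 45.0, 28.9, 27.2, 39.7 and 32.0 CPM in tumors. The tumor of mouse 1 was the lowest of the tumors and controls while the other 5 lay above every control, and the log2 fold change was 0.59 ± 0.30 (adjusted p = 0.19). Txnrd1 and Txn1, thioredoxin reductase and thioredoxin, had log2 fold changes of 0.56 and 0.68, with adjusted p-values of 0.0774 and 0.0785.

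Of the 4 genes of glutathione supply, only Slc7a11 was called. It imports the cystine from which cells take cysteine for glutathione, and lies on chr3:49892526-50443614. It was at 0.297, 0.319 and 0.440 CPM in controls, which is 62 to 99 counts per mouse. In tumors of mice 1 to 6 it was at 38.4, 202, 69.2, 48.9, 11.7 and 111 CPM. The lowest tumor was far above the highest control, and the log2 fold change was 7.85 ± 1.06 (adjusted p = 0.00184), the largest of the 37 genes in this comparison. The subunits of the enzyme that makes the glutathione precursor did not follow it. Gclc, the catalytic subunit, was at 360, 638 and 373 CPM in controls and at 176, 175, 169, 299, 741 and 200.1 CPM in tumors of mice 1 to 6 (log2 fold change -0.64, adjusted p = 0.367). Gclm, the regulatory subunit, had a log2 fold change of -0.20 and Gsr, glutathione reductase, of -0.46, with adjusted p-values of 0.559 and 0.128.

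NADPH keeps glutathione and thioredoxin reduced, and 2 of the 5 genes that supply it rose. Pgd, the 6-phosphogluconate dehydrogenase of the pentose phosphate pathway, was at 26.2, 32.1 and 30.3 CPM in controls. In tumors of mice 1 to 6 it was at 91.6, 371, 336, 113, 56.7 and 301 CPM. Mice 2, 3 and 6 stood above the other tumors, and all 6 lay above the controls (log2 fold change 2.86 ± 0.66, adjusted p = 0.0193). G6pdx, which catalyses the first step of that pathway, was at 47.8 to 48.8 CPM in controls and at 100.2, 293, 208, 105, 80.3 and 264 CPM in tumors, with the same 3 mice highest (1.88 ± 0.46, adjusted p = 0.0236). Taldo1, Tkt and Me1 had log2 fold changes of 0.91, 0.37 and 0.53 and did not pass the test.

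Of the ferritin subunits, which store iron, the light chain Ftl1 rose from 886 to 1082 CPM in controls to 1306, 3007, 3492, 2280, 1910 and 2918 CPM in tumors of mice 1 to 6 (1.35 ± 0.30, adjusted p = 0.0163). The heavy chain Fth1 was at 1356, 1058 and 1028 CPM in controls and at 983 to 1437 CPM in tumors, and the groups overlapped (0.15, adjusted p = 0.503). Of the 2 exporters, Abcc2 had a log2 fold change of 1.22 ± 0.37 with an adjusted p of 0.0497, with 5 of 6 tumors above every control, and lost that call in 10 of 17 alternative settings. Abcc1 had a log2 fold change of 0.31 (adjusted p = 0.342).

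The 13 glutathione transferases did not move together. Mgst1, a membrane-bound transferase, rose from 67.8 to 86.6 CPM in controls to 229, 292, 467, 159, 89.1 and 398 CPM in tumors of mice 1 to 6 (1.80 ± 0.49, adjusted p = 0.0339). Gstk1, a mitochondrial and peroxisomal transferase, fell from 84.9, 107 and 91.1 CPM to 20.1, 18.2, 19.95, 46.5, 52.1 and 17.96 CPM (-1.68 ± 0.37, adjusted p = 0.0161). Both theta-class genes fell, Gstt1 by 1.15 and Gstt2 by 0.64 on the log2 scale, with all tumors below all controls. Gm10639, a gene model inside the alpha-class cluster on chr9:78289923-78305525, fell from 75.2, 116 and 77.8 CPM to 6.70, 6.57, 4.46, 34.4, 8.25 and 4.43 CPM (-3.04 ± 0.64, adjusted p = 0.0133). Its neighbor Gsta2 was at 642 to 759 CPM in controls and at 396 to 1237 CPM in tumors (0.09, adjusted p = 0.881), so the groups overlapped.

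Among the other transferases, Gstm1 and Gstp1 had the largest log2 fold changes that were not called. Gstm1 was at 530 to 727 CPM in controls and at 502 CPM in mouse 1 and 1113 to 2331 CPM in the other tumors (1.18, adjusted p = 0.0675). Gstp1, the pi-class transferase, was at 42.8 to 49.7 CPM in controls and at 57.1 to 212 CPM in tumors (1.37, adjusted p = 0.0623). Gstm5 lay below every control in all 6 tumors (-0.70, adjusted p = 0.104), and like Gsta3, Gsta4, Gstm2 and Gstm3 it did not pass the test.

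**Figure D2:**
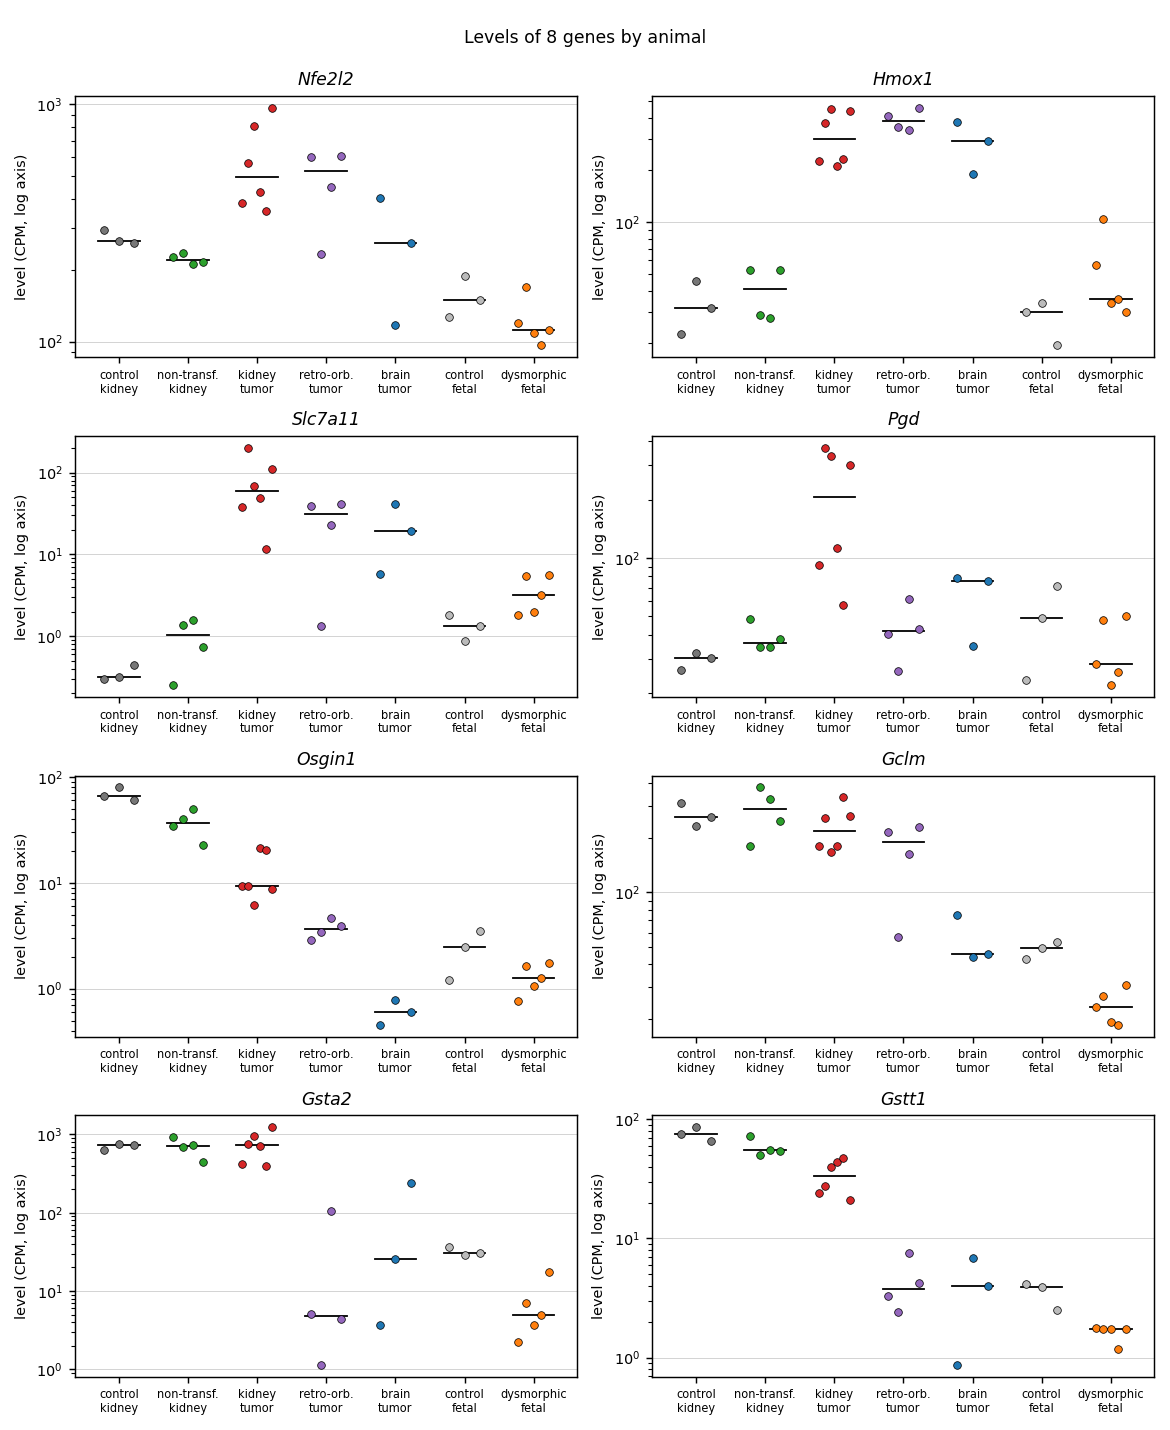
Level of 8 of the genes in every animal (points, CPM on a log axis) in the 7 groups, with a black line at the median of each group. Hmox1 and Slc7a11 are higher in kidney, retro-orbital and brain tumors than in control kidneys, Pgd has its highest median in kidney tumors, and every retro-orbital and brain tumor lies below every kidney tumor for Gsta2 and Gstt1.

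Sequence near the transcription start was examined for the element through which NRF2 acts. RefSeq promoters of 300 bases (250 before and 50 after the start, GRCm38.p6) were matched by symbol for 31 of the 37 genes, with 38 promoters in all. The core of the antioxidant response element was searched as TGACNNNGC on both strands. It was present in 12 of 31 genes (38.7%), and in 14.0% of all 27025 gene symbols with such promoters. By promoter it was present in 12.4% of all 32851 promoters. Of the 10 genes that rose in kidney tumors against control kidneys and had a promoter, 6 held the core, as did 0 of the 4 that fell and 6 of the 17 that were not called. The E-box CACGTG, a palindrome bound by TFE3 and related factors, was in 7.15% of all promoters and in 0 of the 38 promoters of these genes. A match is a description of the letters in this window and not a binding site. The 6 genes that rose and hold the core are shown with 10 bases on each side, followed by Me1 and Gsta3, which were called lower in both retro-orbital and brain tumors, each in the direction in which the core reads and with the core in capitals.
Srxn1: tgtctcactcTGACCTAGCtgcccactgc
Prdx1: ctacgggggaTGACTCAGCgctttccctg
G6pdx: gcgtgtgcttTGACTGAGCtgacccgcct
Pgd: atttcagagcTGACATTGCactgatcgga
Mgst1: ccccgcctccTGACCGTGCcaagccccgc
Abcc2: ctcactgggaTGACATAGCattcatctag
Me1: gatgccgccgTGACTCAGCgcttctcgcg
Gsta3: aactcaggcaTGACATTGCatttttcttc

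These stretches lie at chr2:152105542-152105570 (minus strand) for Srxn1, chr4:116685456-116685484 (minus strand) for Prdx1, chrX:74428919-74428947 (plus strand) for G6pdx and chr4:149166061-149166089 (minus strand) for Pgd. The others lie at chr6:138140461-138140489 (minus strand) for Mgst1, chr19:43782200-43782228 (plus strand) for Abcc2, chr9:86695902-86695930 (minus strand) for Me1 and chr1:21240454-21240482 (plus strand) for Gsta3. Nfe2l2, Txnrd1, Gclm and Gstm5 also held the core and are not printed. Prdx1 and Me1 share the core TGACTCAGC, whose centre lies 129 bases from the start in Prdx1 and 2 bases from it in Me1. No promoter entry was matched for Hmox1, Gclc, Gsr, Gsta4, Gstt2 and Abcc1.

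Other genes of the pathway were counted from lists of 75 genes. In kidney tumors against control kidneys, 14 rose and 10 fell of 75 tested (32.0%, against 19.0% of all genes), with a median log2 fold change of 0.019. The largest rises were those of Maff, a small Maf partner of NRF2 (4.97 ± 0.96), Aox1, an aldehyde oxidase (4.51 ± 0.48), and Mgst2, a microsomal transferase (4.18 ± 0.98). The largest falls were those of Abcc3, a conjugate exporter (-1.87 ± 0.45), Cbr1, a carbonyl reductase (-1.46 ± 0.25), and Msra, a methionine sulfoxide reductase (-1.37 ± 0.34).

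Kidney tumors were next compared with non-transformed kidneys of mice that carried the fusion. These use the same tumors, so they are no second sample of them. Of the 37 genes, 17 were called, 12 higher and 5 lower (background 17.1% of 21930 genes, with 12.1% higher and 5.02% lower). The median log2 fold change was 0.484, against -0.023 over all genes tested, and it was 0.148 with mouse as a block and 0.742 in female mice only. The largest rise was again in Slc7a11, which was at 0.253, 1.36, 1.59 and 0.735 CPM in non-transformed kidneys of mice 1, 3, 4 and 5 (6.32 ± 0.95, adjusted p = 0.00219). Hmox1 was at 52.5, 29.0, 28.0 and 52.9 CPM there, below all tumors (2.94 ± 0.34, adjusted p = 0.000482). Nfe2l2 was at 226, 235, 213 and 217 CPM, below every tumor, and was called (1.35 ± 0.29, adjusted p = 0.0129). Txnrd1 rose by 0.56 ± 0.17 (adjusted p = 0.0482). Gsr fell by 0.66 ± 0.19, with 5 of 6 tumors below all non-transformed kidneys.

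The tissues of the same mouse pair the samples in this comparison. With mouse as a block in the 4 mice that gave both, 3 genes were called, all higher, and 4.12% of all genes were called in that fit. They were Slc7a11 (log2 fold change 5.39, adjusted p = 0.0139), Hmox1 (2.72, adjusted p = 0.0212) and Ephx1 (1.17, adjusted p = 0.0455). Without the block, the count of 17 became 2 without mouse 3 and 7 without mouse 1, where 5.59% and 6.40% of all genes were called. Without the kidney tumors of mice 4 and 5 the unblocked count was 24, with all 17 genes among them, and 33.4% of all genes were called. In female mice it was 8, with 6 of the 17 genes among them, and 5.19% of all genes were called. Of the 75 pathway genes, 13 rose and 11 fell (32.0%, against 17.1% of all genes). The largest changes were those of Maff (4.06 ± 0.80), Aox1 (3.35 ± 0.48) and Gstm6 (3.23 ± 0.62) upward, and of Chac2 (-1.38 ± 0.37), Msra (-1.33 ± 0.32) and Gstt3 (-1.23 ± 0.33) downward.

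Non-transformed kidneys of fusion mice were compared with control kidneys to ask whether the genes differed in kidney without tumor. None of the 37 genes was called by edgeR (background 0.00952% called, 0.00952% higher and 0% lower of 21019 genes), while 10 had an unadjusted p under 0.05, 7 higher and 3 lower (11.7% of all genes did). DESeq2 called 1, Osgin1, and 1.81% of all genes. Of the 74 other pathway genes tested, edgeR and DESeq2 both called 0, and 13 had an unadjusted p under 0.05 in edgeR, against the same 11.7%. Osgin1 was at 34.1, 39.8, 49.7 and 22.6 CPM in non-transformed kidneys of mice 1, 3, 4 and 5, and all 4 lay below the 3 controls (-0.88, adjusted p = 0.231). Nfe2l2 also lay below the controls in all 4 (-0.26, adjusted p = 0.321). Nqo1 was at 47.2, 29.3, 31.1 and 31.4 CPM, above the 16.8 to 23.9 CPM of controls in all 4 (0.76, adjusted p = 0.244).

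Levels varied among the kidney tumors. The coefficient of variation over the 6 tumors ranged from 13.4% for Fth1 and 14.1% for Keap1 to 85.3% for Slc7a11, 86.1% for Gstm2 and 108% for Gm10639. As a description, in a split chosen after the values were seen and therefore not tested, 22 of the 37 genes were higher in each of mice 2, 3 and 6 than in each of mice 1, 4 and 5. This was 59.5%, against 13.7% of the 18721 genes with 10 or more counts in every kidney tumor. Among the 22 were Slc7a11, Pgd, G6pdx, Hmox1, Nfe2l2, Cbr3, Mgst1 and Gsta2. The proximal tubule marker sums were lowest in mice 2, 3 and 6, and that of mouse 1 lay between them and those of mice 4 and 5. The genes Osgin1, Gm10639, Gstm5 and Gstk1 were lower in each of mice 2, 3 and 6, and the other 11 overlapped. The share that was lower was 10.8%, near the 13.9% of the same 18721 genes. Gstk1 was highest in mice 4 and 5, with the highest marker sums, at levels between those of the other tumors and the controls. Gclc and Gm10639 were also highest in these 2 mice. Nqo1, Me1 and Fth1 were among those that overlapped. For Nqo1 mouse 5 lay above mice 3 and 6, for Me1 above mice 2 and 3, and for Fth1 it was the highest of all. The part of nephron RNA in these differences was not tested.

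Libraries of the same mouse also differed. In mouse 4 the 2 kidney tumor libraries gave 7.40 and 90.5 CPM for Slc7a11, 60.9 and 164 CPM for Pgd, 132 and 288 CPM for Hmox1, and 52.2 and 15.95 CPM for Gm10639. In mouse 6 they gave 113.5 and 101.3 CPM for Slc7a11 and 288.9 and 292.5 CPM for Pgd. In mouse 2 they gave 216 and 1200 CPM for Gsta2, a wider span than the 396 to 1237 CPM among the 6 mice.

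**Figure D3:**
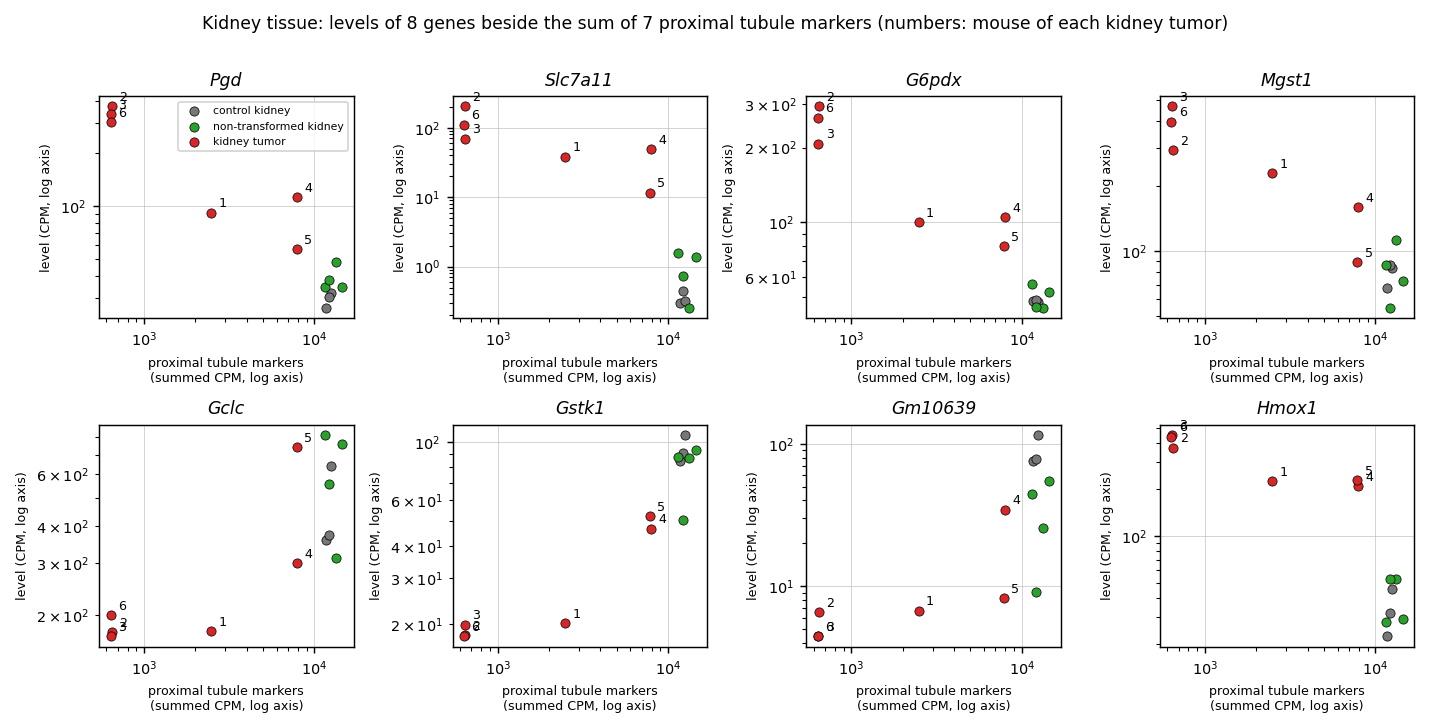
Level of 8 genes in control kidneys, non-transformed kidneys and kidney tumors (CPM, log axis) against the summed level of 7 proximal tubule markers in the same animal (CPM, log axis), with the mouse number beside each kidney tumor. The tumors of mice 2, 3 and 6 lie at sums of 636 to 646 CPM and those of mice 4 and 5 at 7950 and 7850 CPM, and Pgd, G6pdx and Mgst1 are highest in the former while Gclc and Gstk1 are highest in the latter.

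Tumors at other sites were compared with kidney tumors of the same line of mice. In retro-orbital tumors 13 of the 37 genes were called, and all 13 were lower (background 17.7% of 22136 genes, with 8.26% higher and 9.45% lower). The median log2 fold change was -0.842, against -0.086 over all genes. By role, 6 of the 13 transferases, 3 of the 9 stress enzymes, 3 of the 5 NADPH genes and 1 of the 2 ferritin subunits fell, and the regulators, glutathione supply and exporters had none.

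The transferases Gsta2 and Gstt1 had the largest falls of the 13. Gstt1 was at 3.29, 2.39, 7.49 and 4.24 CPM in retro-orbital tumors of mice 2, 3, 5 and 6, against 21.1 to 47.4 CPM in kidney tumors (-2.98 ± 0.39, adjusted p = 0.00175). Gsta2 was at 5.08, 1.15, 106 and 4.40 CPM in the same mice, against 396 to 1237 CPM (-4.68 ± 1.27, adjusted p = 0.0302). Mouse 5 stood apart, and its retro-orbital tumor also held 1070 CPM of proximal tubule and 552 CPM of distal markers, against 117 to 223 and 7.75 to 37.4 CPM in the other 3. Gstp1 was at 20.2 to 34.1 CPM, below every kidney tumor (-2.12 ± 0.42, adjusted p = 0.00851). Gsta3, Gstm5 and Mgst1 fell by 2.26, 1.10 and 1.62 on the log2 scale. Gstm2 was at 196.5, 126, 102 and 336 CPM, against 10.7 to 167 CPM in kidney tumors, and was not called (1.37, adjusted p = 0.199).

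Of the genes that supply NADPH, Me1, malic enzyme 1, was at 130, 86.7, 162 and 161 CPM in retro-orbital tumors of mice 2, 3, 5 and 6 and at 337 to 676 CPM in kidney tumors (-1.84 ± 0.24, adjusted p = 0.00175). Pgd was at 40.5, 26.1, 61.1 and 43.1 CPM, and fell by 2.34 ± 0.58 (adjusted p = 0.0205). Taldo1, transaldolase, fell by 1.43 ± 0.31, and Fth1 by 0.94 ± 0.18. Osgin1, already low in kidney tumors, was at 2.87, 3.41, 4.62 and 3.93 CPM (-1.78 ± 0.39, adjusted p = 0.0125). Hmox1 was at 408, 354, 341 and 455 CPM, and the groups overlapped, with mouse 6 above every kidney tumor (0.25, adjusted p = 0.532). Slc7a11 was at 39.4, 1.35, 22.9 and 42.0 CPM, with mouse 3 far below the others (-1.64, adjusted p = 0.235). Txn1 and Ephx1 fell by 0.75 and 1.25.

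With mouse as a block in the 4 mice with both tissues, 9 genes were called, 7 of them among the 13, and 13.1% of all genes were called in that fit. The calls of Ephx1, Pgd, Gsta2, Gsta3, Gstm5 and Mgst1 were lost with the block. Without the block, the count was 5 without mouse 2, and without mouse 3 or mouse 6 it was 6, where 8.06%, 7.24% and 7.92% of all genes were called. Without the kidney tumors of mice 4 and 5 it was 12 (16.4% of all genes), with 9 of the 13 genes among them, and Gsta2, Gsta3, Gstm5 and Txn1 were lost. Kidney tumors held 636 to 7950 CPM of proximal tubule markers and retro-orbital tumors 117 to 1070 CPM. Endothelial markers summed to 814 to 1220 CPM in retro-orbital and 331 to 601 CPM in kidney tumors, fibroblast markers to 1600 to 3020 and 837 to 1910 CPM, and macrophage markers to 422 to 858 and 225 to 972 CPM. The part of these differences in the falls was not tested. Of the 75 pathway genes, 2 rose and 29 fell (41.3%, against 17.7% of all genes). The rises were Akr1b3, an aldose reductase (0.67 ± 0.18), and Bach1, a repressor at antioxidant response elements (0.60 ± 0.13). The largest falls were in Gsta1 (-5.53 ± 0.99) and the gamma-glutamyltransferases Ggt6 (-4.84 ± 1.10) and Ggt1 (-4.27 ± 1.07).

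In brain tumors, 10 of the 37 genes were called against kidney tumors, and all 10 were lower (background 8.74% of 23391 genes, with 4.54% higher and 4.20% lower). The median log2 fold change was -1.23, against 0.03 over all genes tested, and 36 of the 37 genes had a log2 fold change below 0. Gsta3 was at 1.41, 3.47 and 9.31 CPM in brain tumors of mice 1, 2 and 4, against 118 to 291 CPM in kidney tumors (-5.25 ± 0.67, adjusted p = 0.00619). Osgin1 was at 0.456, 0.781 and 0.601 CPM (-4.26 ± 0.56, adjusted p = 0.00685). Gstt1 was at 0.873, 6.80 and 3.97 CPM (-3.04 ± 0.63, adjusted p = 0.0247).

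The glutathione supply genes Gclm and Gsr fell in brain tumors. Gclm was at 75.1, 44.0 and 46.0 CPM in mice 1, 2 and 4 and at 168 to 335 CPM in kidney tumors (-1.98 ± 0.30, adjusted p = 0.011). Gsr was at 48.9, 44.2 and 55.8 CPM, against 100.1 to 193 CPM (-1.34 ± 0.24, adjusted p = 0.0169). Me1 fell by 2.31 ± 0.30, Tkt, transketolase, by 1.23 ± 0.33, Prdx1 by 1.19 ± 0.32, Fth1 by 0.66 ± 0.16 and the exporter Abcc1 by 1.47 ± 0.32. Hmox1 was at 376, 188 and 292 CPM (-0.08, adjusted p = 0.906), and Slc7a11 at 5.80, 41.9 and 19.2 CPM (-1.76, adjusted p = 0.234). Gsta2 was at 3.70, 25.6 and 243 CPM, and was not called (-2.97, adjusted p = 0.117).

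With mouse as a block in the 3 mice that gave both tissues, 0 of the 37 genes were called by edgeR, while 17 had an unadjusted p under 0.05 (0% and 13.1% of all genes in that fit). DESeq2 without the block called 20, and 15.2% of all genes. The unblocked edgeR count of 10 became 2 without mouse 2 and 6 without mouse 3, where 1.26% and 4.20% of all genes were called. It was 8 without the kidney tumors of mice 4 and 5, with 6 of the 10 genes among them and 5.80% of all genes called. The 6 brain markers summed to 120, 1200 and 383 CPM in brain tumors of mice 1, 2 and 4 and to 12.6 to 81.2 CPM in kidney tumors. The proximal tubule markers summed to 277 to 732 CPM in brain tumors against 636 to 7950 CPM, and the distal markers to 20.9 to 208 CPM against 20.5 to 5840 CPM. The part of these markers in the values was not tested. Of the 75 pathway genes, 0 rose and 17 fell (22.7%, against 8.74% of all genes), led by Ggt1 (-4.74 ± 0.81), Ggt6 (-4.38 ± 1.13) and H6pd, the glucose-6-phosphate dehydrogenase of the endoplasmic reticulum (-3.60 ± 0.37).

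Between brain and retro-orbital tumors, 1 gene was called (background 1.73% of 21037 genes, with 0.395% higher and 1.34% lower). It was Osgin1, with all 3 brain tumors below all 4 retro-orbital tumors (-2.56 ± 0.36, adjusted p = 0.0287), and it was not called without mouse 2, 3, 5 or 6. DESeq2 and the joint fit of all groups each called 7, beside 9.46% and 15.1% of all genes. Cbr3 was at 46.8, 10.2, 39.2 and 59.1 CPM in retro-orbital tumors and at 4.39, 2.68 and 10.03 CPM in brain tumors (-2.75, adjusted p = 0.0937). Of the 73 pathway genes tested, only Aox1 was called (1.37%, against 1.73% of all genes), and it was lower in brain tumors (-2.22 ± 0.40, adjusted p = 0.0478).

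**Figure D4:**
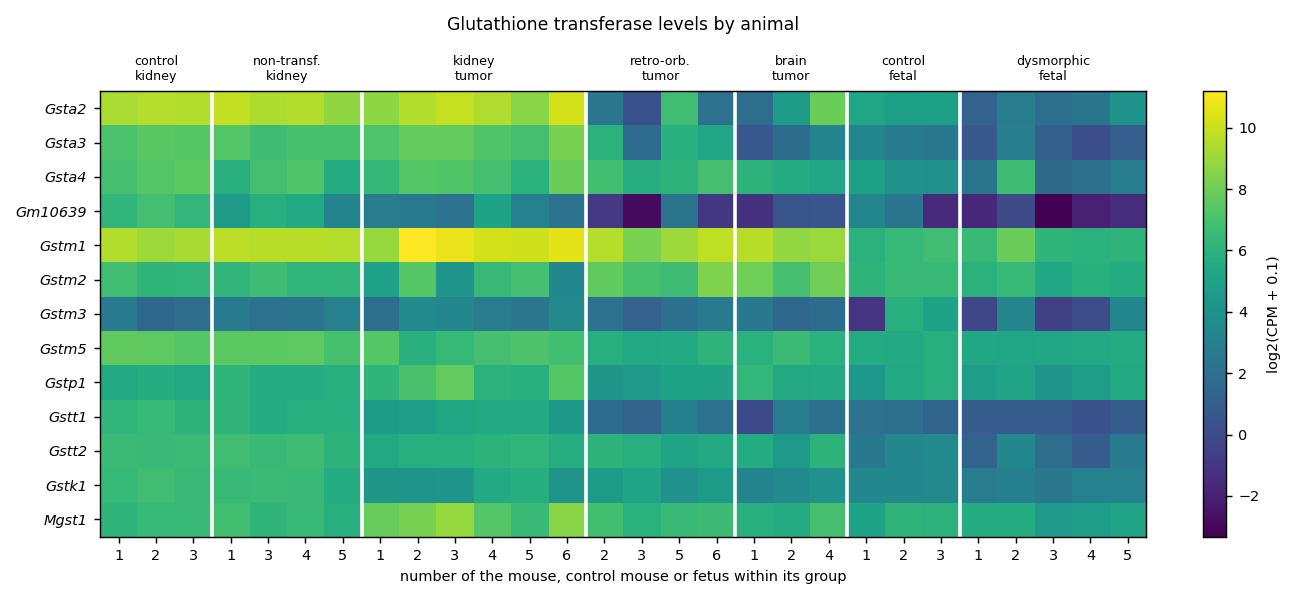
Level of the 13 glutathione transferases in every animal, as log2(CPM + 0.1), with white lines between groups and the animal's number on the lower axis. Gsta2 is bright in adult kidneys and kidney tumors and dark in retro-orbital tumors of mice 2, 3 and 6, Gstm1 is brightest in the kidney tumor of mouse 2, and Gsta4 stands out in dysmorphic fetus 2.

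The same genes were then compared between dysmorphic and control kidneys of fetuses, where 2 of the 37 genes were called (background 2.67% of 22690 genes, with 2.40% higher and 0.269% lower). Ephx1 was at 11.3, 9.81, 15.0, 12.1 and 8.49 CPM in dysmorphic fetuses 1 to 5 and at 5.02, 3.67 and 3.69 CPM in control fetuses 1 to 3. The groups did not overlap, and the log2 fold change was 1.41 ± 0.23 (adjusted p = 0.035). Gclm was at 23.4, 26.8, 19.3, 18.6 and 30.7 CPM and at 42.8, 49.6 and 53.4 CPM in the same order, again with no overlap (-1.08 ± 0.19, adjusted p = 0.0361). The median log2 fold change was -0.44, against -0.038 over all genes, and -0.69 without dysmorphic fetus 2.

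Dysmorphic fetuses 1 to 3 and control fetus 1 were male by Y-linked transcripts, and the other fetuses were female. Both calls were lost with sex as a covariate, in the joint fit of all groups, and in 6 of 8 fits with 1 fetus removed. DESeq2 called 9, beside 7.72% of all genes, and a block by the number that opens the titles of the fetuses gave 3, beside 1.80%. Hmox1 was at 56.5, 104, 34.02, 35.96 and 30.15 CPM in dysmorphic and at 30.02, 33.89 and 19.4 CPM in control fetal kidneys (0.86, adjusted p = 0.328). Slc7a11 was at 1.82, 5.38, 1.96, 3.23 and 5.65 CPM and at 1.82, 0.878 and 1.32 CPM (1.38, adjusted p = 0.167). Nqo1 was at 1.70 to 2.59 CPM in 4 dysmorphic kidneys and at 11.0 CPM in fetus 2, against 2.13 to 5.71 CPM in controls.

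In the fetal kidneys Gsta2 was at 2.25, 7.04, 3.65, 4.89 and 17.3 CPM in dysmorphic kidneys, below the 28.8 to 36.96 CPM of all controls (-2.24, adjusted p = 0.0835). Gstt1 was at 1.17 to 1.76 CPM, also below all controls at 2.49 to 4.15 CPM (-1.15, adjusted p = 0.0536). Gsta4 was at 103 CPM in dysmorphic fetus 2 and at 3.11 to 6.92 CPM in the other 4. Gstm3 was at 0.348, 55.9 and 32.6 CPM in the 3 controls. The proximal tubule markers summed to 43.4 to 832 CPM in dysmorphic and 1110 to 1340 CPM in control fetal kidneys. The 5 skeletal muscle markers summed to 1830 to 4240 CPM against 688 to 888 CPM, and the 5 fibroblast markers to 5060 to 11300 CPM against 2640 to 3510 CPM. The 7 macrophage markers summed to 285 to 539 CPM in dysmorphic and 172 to 195 CPM in control fetal kidneys, with no overlap. The part of these differences in tissue in the values above, Hmox1 included, was not tested. Of the 75 pathway genes, 0 were called by edgeR (2.67% of all genes were), while 22 had an unadjusted p under 0.05 (20.3% of all genes did) and DESeq2 called 6, beside 7.72% of all genes.

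The effect of the fusion was compared between the models, as the change in kidney tumors minus the change in dysmorphic fetal kidneys. Of the 37 genes, 9 were called, all with a higher log2 change in the Sglt2-Cre model (background 8.94% of 24444 genes, with 6.87% higher and 2.07% lower). The difference was largest for Slc7a11, at 6.53 ± 1.03 on the log2 scale (adjusted p = 0.00104), followed by Pgd at 3.43 ± 0.81 (adjusted p = 0.0169). For Mgst1 it was 2.48 and for Hmox1 2.47, and for Taldo1, Ftl1, Nfe2l2, Prdx1 and Txn1 it was 1.16 to 1.71. In the fetal comparison itself none of the 9 was called, and its log2 fold changes were 1.38 for Slc7a11, 0.86 for Hmox1 and below 0 for the other 7, from -0.75 for Taldo1 to -0.24 for Prdx1. Nfe2l2, Txn1 and Taldo1 were not called in kidney tumors against control kidneys either. The median over the 37 genes was 1.01, against 0.163 over all genes tested, and 1.53 without dysmorphic fetus 2. The models differ in Cre driver, age and tissue state together, which cannot be told apart. The count was 17 without the kidney tumors of mice 4 and 5, where 17.5% of all genes were called, and it was 1 without control mouse 3 and 2 without control mouse 2, where 4.08% and 3.79% were. Slc7a11 was called in all 22 alternative settings.

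Several of these genes share sequence with close relatives, so reads may have been counted for the wrong copy. The share of the 50-base windows of a gene's transcripts that also occur in transcripts of another gene was 58.4% for Ftl1, mostly with the pseudogene Ftl1-ps1. It was 49.8% for Gsta2 and 49.4% for Gm10639, which share windows with each other and with Gsta1 and Gm3776. It was 33.7% for Gstp1, all of it with Gstp2, 28.8% for Gstm3, 28.3% for Me1, 18.9% for Gstm1 and 16.9% for G6pdx. For Hmox1, Nfe2l2, Nqo1, Osgin1, Srxn1, Gstt1, Gstk1 and Mgst1 it was 0%, and for Slc7a11 it was 1.47%. These shares do not measure how many reads were misassigned, and the values of Ftl1, Gsta2, Gm10639, Gstp1, Gstm3 and Me1 in particular are uncertain for this reason.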

How the data were processed

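The authors deposited raw counts per gene for 36 FFPE libraries (28 Sglt2-Cre, 8 Pax8-Cre), made with a stranded total RNA kit without removal of ribosomal RNA. The submitters' processing notes name FastQC, MultiQC, Bowtie2 and STAR 2.5.2a and the builds GRCm38 and mm10. The counting program, its handling of strand and of reads that map to several places, and the annotation are not given in the sources used here. Symbols and coordinates are from GENCODE M21 (GRCm38), and 33 of the 37 gene versions matched it exactly. Between 79.04% and 84.33% of counts from 1 to 20 were even in each library, so halved counts were tried.

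The mouse was taken as the unit, so its libraries from the same tissue were added together. These libraries differed by more than sampling noise. With edgeR 4.0.16 in R 4.3.3, each comparison was fitted on its own groups (TMM, filterByExpr, quasi-likelihood F-test, Benjamini-Hochberg over all genes tested, called under 0.05). Each ± after a log2 fold change is its SE, computed as its size divided by the square root of F. Levels are TMM-scaled CPM over all 28 animal samples. Depth per library was 80205573 to 121415057 counts. There were no molecular identifiers, so a count is not a molecule.

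Alternatives were RLE factors, DESeq2 1.42.0, no filter, halved counts, a joint fit, limma-voom (limma 3.58.1) with animal as a random block, mouse as a fixed block, female mice only, sex as a covariate, and each animal left out. Leaving out the kidney tumors of mice 4 and 5 was chosen after seeing the data. The scripts were tested on simulated data. P-values weigh a difference between groups against the spread among animals within groups. In fits without a block, tissues of the same mouse in 2 groups were treated as independent. Samples were paired where the labels give both tissues the number of a single mouse. The correlation, per mouse, of the 2 tissues' departures from their group averages was 0.01 to 0.194 between kidney tumor and non-transformed kidney, 0.114 to 0.302 for retro-orbital and kidney tumors, and -0.176 to 0.143 for brain and kidney tumors. Mice were taken as male where Y-linked genes summed to over 50 CPM.

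The genes and lists were chosen with earlier results of these data known. Every gene is accounted for. Per-animal values or ranges are given for many of the called genes with the largest changes, the regulators, Nqo1, Hmox1 and some transferases. The exporters Abcc1 and Abcc2 are given without values by adult animal. In each comparison at most 3 rises and 3 falls of the pathway lists are named.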

Additional observations from a re-analysis of the deposited data

Results flagged for a closer look

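In 19 of 148 sets of 4 to 6 animals, the level of a gene in 1 animal stood further from the rest than Dixon's 95% limit. About 1 in 20, or 7.4 of 148, would do so by chance only if the values were independent and normally distributed. The levels were not put on a log scale and the same animals recur across sets. The count is therefore a description and does not show an excess over chance. Dysmorphic fetus 2 stood high for Nqo1 (11.0 CPM, next 2.59 CPM), Gclc (41.4, next 29.9 CPM), Gsta3 (7.16, next 2.09 CPM), Gsta4 (103, next 6.92 CPM) and Gstm1 (247, next 87.1 CPM). Dysmorphic fetus 5 stood high for Srxn1 (3.35 CPM) and Abcc2 (379, next 25.8 CPM), and fetus 4 stood high for Abcc1 (60.4 CPM) and low for Gstt1 (1.17 CPM). Among kidney tumors, mouse 5 stood high for Gclc (741, next 299 CPM) and mouse 4 for Gm10639 (34.4, next 8.25 CPM). The retro-orbital tumor of mouse 5 stood high for Gsta2 (106, next 5.08 CPM) and Gm10639 (4.78, next 0.422 CPM). Among non-transformed kidneys, mouse 1 stood high for Nqo1 (47.2 CPM) and Srxn1 (9.70 CPM), mouse 3 stood high for Gstm2 (104 CPM), and mouse 5 stood low for Taldo1 (79.8 CPM), Gstm5 (123 CPM) and Gstk1 (50.1 CPM).

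The log2 change in kidney tumors exceeded that in dysmorphic fetal kidneys, by edgeR's test of the difference, by 1.56 for Nfe2l2, 2.47 for Hmox1, 1.16 for Txn1, 1.44 for Prdx1, 6.53 for Slc7a11, 3.43 for Pgd, 1.71 for Taldo1, 1.65 for Ftl1 and 2.48 for Mgst1. The adjusted p-values ran from 0.00104 for Slc7a11 to 0.0415 for Nfe2l2.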

How the results depend on the processing

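All 1088 recomputed fold changes of called genes kept their direction, and 805 were still called. Of 68 calls, 9 were made under every alternative run. They were Hmox1, Osgin1 and Slc7a11 in kidney tumors against control kidneys, Hmox1 and Slc7a11 against non-transformed kidneys, Me1, Fth1 and Gstt1 in retro-orbital tumors, and Slc7a11 in the difference between the models. Where a count moved by more than 1.5 times, the cause was not tested.

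Against control kidneys the count went from 16 to 26 in female mice. Against non-transformed kidneys it went from 17 to 8 in female mice. DESeq2 gave 1 in place of 0 for non-transformed against control kidneys, 20 in place of 10 for brain against kidney tumors, 7 in place of 1 for brain against retro-orbital tumors, 9 in place of 2 for fetal kidneys and 14 in place of 9 for the difference between the models. The joint fit gave 24 for brain against kidney tumors, 7 for brain against retro-orbital tumors and 0 for fetal kidneys. Limma-voom gave 20 for retro-orbital and 20 for brain against kidney tumors. Sex as a covariate gave 0 for fetal kidneys, and leaving out the kidney tumors of mice 4 and 5 gave 17 for the difference.

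With mouse as a replicate block the count was 3 against non-transformed kidneys, 9 for retro-orbital and 0 for brain against kidney tumors. The number that opens the fetal titles gave 3 as a block. No paired analysis was possible for brain against retro-orbital tumors because only mouse 2 gave both. Limma-voom was not run for that comparison, for fetal kidneys or for the difference between the models.

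Leaving out 1 animal at a time gave 3 to 22 against control kidneys, 2 to 17 against non-transformed kidneys, 0 for non-transformed against control kidneys, 5 to 13 for retro-orbital and 2 to 10 for brain against kidney tumors, 0 to 2 for brain against retro-orbital tumors, 0 to 4 for fetal kidneys and 1 to 15 for the difference. For fetal kidneys it was 4 without dysmorphic fetus 2 and 3 without dysmorphic fetus 5. For the difference it was 1, 2 and 4 without control mouse 3, 2 and 1, 3 and 4 without control fetus 3 and 2, 5 without dysmorphic fetus 4 and 15 without mouse 5. For brain against retro-orbital tumors it was 2 without mouse 1 or 4. Where the share of all genes called is given in the Results for a fit without 1 animal, that share moved as well.

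Groups of 3 to 6 animals, sex that differs between groups, nephron RNA in some tumors and reads shared among close gene copies limit these values. In control kidneys the counts were lowest for Slc7a11, with 62 to 99 per mouse.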
